A study of Mus musculus with 11 samples.

Results

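The genes described here are the subunits, activators and assembly factors of the proteasome, measured in whole liver of 5 FSH-treated and 6 saline-treated mice. They were taken from the table by symbol, as every name made of Psm, a letter from a to g and a digit, and names marked as pseudogenes (3 rows) were left out. This gave 50 of the 36788 gene identifiers. All animals of both groups were wild-type C57BL/6 females older than 12 weeks that had been ovariectomized (OVX) and fed a high-fat diet (HFD). The FSH group received daily intraperitoneal injections of follicle-stimulating hormone and the other group received saline. The FSH-treated mice are numbered 1, 2, 3, 4 and 6 and the saline-treated mice 1 to 6. An intact or chow-fed group is not analysed here, so each value compares 2 ovariectomized groups on the same diet.

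The proteasome is the protease that degrades proteins tagged with ubiquitin. Its 20S core is a barrel of stacked rings, with outer rings of alpha subunits and inner rings of beta subunits that carry the catalytic sites. The 19S cap sits on the end of the barrel, where ATPase subunits unfold the substrate, and the other subunits of the base and lid bind ubiquitin chains and remove them. Interferon induces alternative catalytic subunits, Psmb8, Psmb9 and Psmb10, which replace Psmb5, Psmb6 and Psmb7 and form the immunoproteasome, known for making peptides for MHC class I. Activators of the Psme family open the core without ubiquitin, and dedicated chaperones guide the assembly of the core (Psmg) and of the cap base (Psmd5, Psmd9 and Psmd10).

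Values are CPM, the reads on a gene scaled to the same total of reads in every library. Libraries held between 10801891 and 19909327 reads on genes, so that 3 reads, the most that a count of 0 allows, were worth 0.151 to 0.278 CPM, which covers counting error only. Of the members, 48 had a mean of at least 0.5 CPM and were tested together with all 12733 genes that passed this filter, by limma on log2(CPM + 0.5), a scale on which changes of genes with few reads come out too small. The p-values were adjusted by the Benjamini-Hochberg method over all 12733 genes, and a gene was called at an adjusted p under 0.05. The remaining pair was not tested. Psmb11, the thymus-specific catalytic subunit, had 0 reads in all 11 libraries. Psmc3ip, a factor of meiotic recombination that is named for its binding to a cap subunit and is not part of the particle, lay between 0.0761 and 0.680 CPM. The source tissue was checked on marker genes. The summed level of 8 hepatocyte genes was 107252 to 126660 CPM in the FSH group and 105456 to 131945 CPM in the saline group. Most of this sum was Alb, at 65730 to 84688 CPM after FSH and 56399 to 87648 CPM after saline. Of the 8 genes, 3 had higher and 5 lower values after FSH. Fgb was called lower (limma adjusted p = 0.0289), as were 4.41% of all genes. In bulk liver, fewer cells of a type and less RNA per cell cannot be told apart.

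In 3 livers, FSH 2, saline 2 and saline 6, short mRNAs were low relative to long ones. Over 996 genes with mRNAs under 1500 bases and 1960 genes with mRNAs of 3000 bases or more, members left out and each with a mean of at least 20 CPM, the median log2 deviation from the gene's mean of the short ones minus that of the long ones was -0.233, -0.281 and -0.303 in these livers. It was 0.0332 to 0.165 in the other 8 livers. Several results below are also given without these livers.

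FSH treatment went with higher mRNA of the immunoproteasome subunit Psmb9 and with lower mRNA of the cap subunit Psmd11, while most of the proteasome genes did not pass the test. The immunoproteasome subunit Psmb10 was also called higher, but the groups overlapped and its call was lost in 12 of 21 alternative settings. In all, 4 of the 48 members were called, or 8.33%, against 10.6% of all genes tested. The 3 called higher were Psmb9, Psmb10 and Psma8, against 6.19% of all genes called higher, and the 1 called lower was Psmd11, against 4.41% of all genes called lower. With all 11 livers the share of members called was thus not above that of the whole table, but this order turned in 3 of 21 alternatives. Without FSH 2, saline 2 and saline 6 the shares were 8.33% of members and 6.68% of all genes (3.81% higher and 2.87% lower), without saline 3 they were 8.33% and 8.15%, and with no filter on low values 6.12% and 4.92%. Without saline 3 and with no filter, Psma8 was among the called members, and the turned order needs its call. Psma8 was not called without FSH 2, saline 2 and saline 6, a setting chosen after seeing the data. None of the members (0 of 48) combined an adjusted p under 0.05 by limma with an absolute log2 fold change over 1, where 1.83% of all genes did. An unadjusted p under 0.05 was found for 9 members, or 18.8%, against 25.1% of all genes, and edgeR's quasi-likelihood test placed 1 member, Psma8, past both limits. Psma8 was near the limit of detection and passed the filter only through the FSH group, so its call is not counted as support. The groups did not overlap for 2 members, Psmb9 and Psmd11, against 6.67% of all genes.

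**Figure D1:**
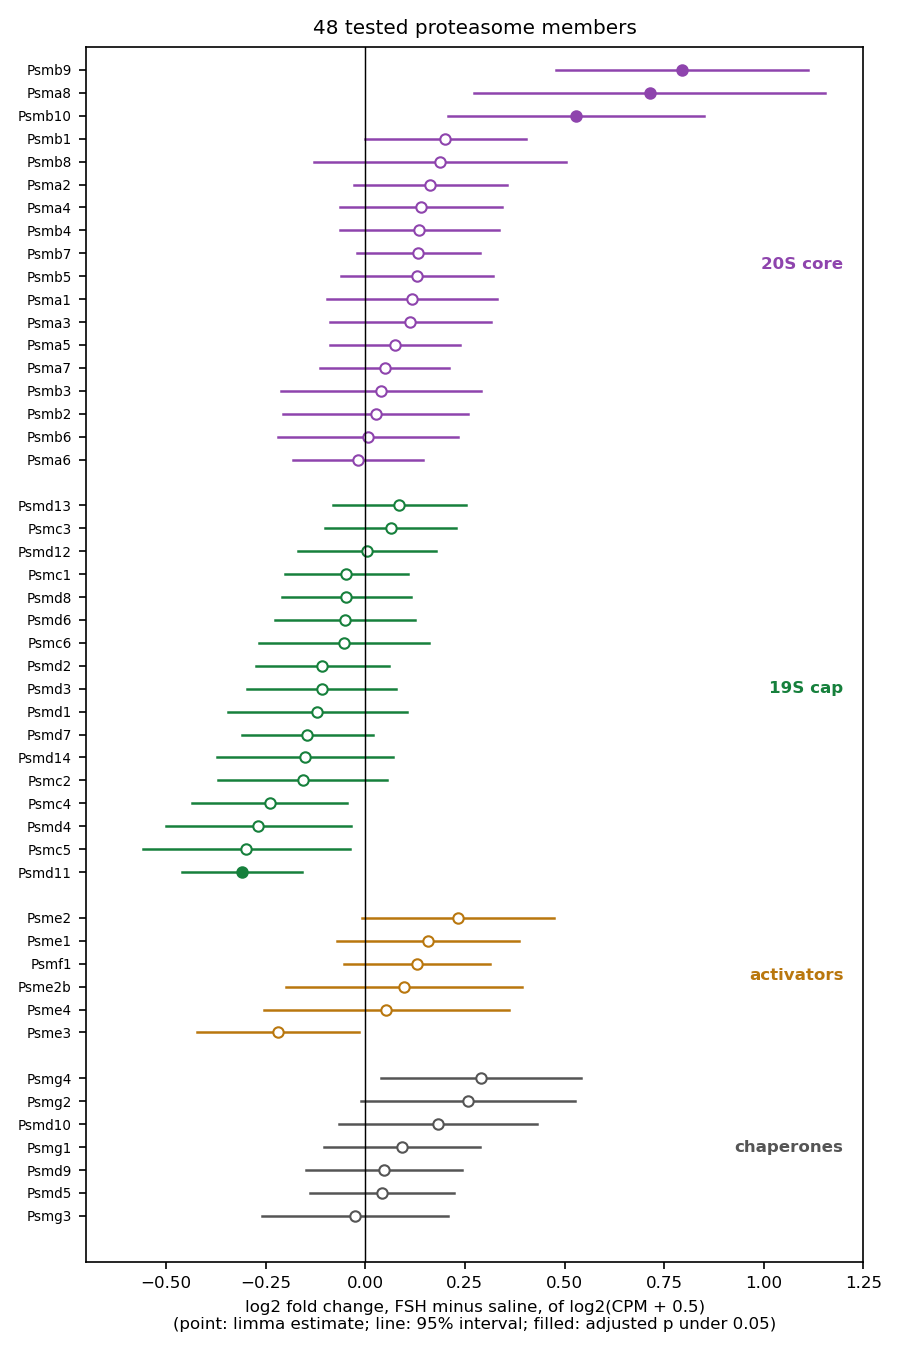
Log2 fold change of each of the 48 tested members, FSH against saline, on the log2(CPM + 0.5) scale, with bars for the 95% interval of limma's fit, sorted within core, cap, activators and chaperones. Psmb9, Psma8 and Psmb10 lie farthest to the right and Psmd11 farthest to the left, and most of the other intervals lie within 0.5 of 0.

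The inducible catalytic subunits are described first. Psmb9 (ENSMUSG00000096727), also known as LMP2 or beta1i, had 30.8, 24.2, 23.5, 31.9 and 23.1 CPM in FSH-treated mice 1, 2, 3, 4 and 6. In the 6 saline-treated mice it ranged from 12.3 to 21.1 CPM with a median of 13.9 CPM. Every FSH-treated liver was above every saline-treated liver. The mean was 26.7 ± 4.27 CPM (SD, n = 5) after FSH and 15.3 ± 3.57 CPM (SD, n = 6) after saline (log2 fold change 0.80, SE 0.15, 95% interval 0.48 to 1.11, limma adjusted p = 0.00334). An exact two-sided permutation test over the 462 divisions of the libraries gave p = 0.00433. It stayed called in all 21 alternative settings, with adjusted p from 0.00131 to 0.0242 by limma or edgeR, the highest being the setting without FSH 2, saline 2 and saline 6.

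In GENCODE M21 on GRCm38, Psmb9 lies at chr17:34181987-34187764 on the minus strand, where its exons overlap those of Tap1, the MHC class I peptide transporter, on the other strand. RefSeq places the start sites of these genes 226 bases apart. Whether the reads were counted by strand is not stated, so reads of the shared exon cannot be assigned with certainty. Tap1 itself had 21.9 ± 4.55 CPM (SD, n = 5) after FSH and 17.97 ± 2.37 CPM (SD, n = 6) after saline (limma adjusted p = 0.24).

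Within the 250 bases upstream of the RefSeq start, Psmb9 holds 1 match to TGANNNNGC, the core of the antioxidant response element bound by the NRF factors that control proteasome genes. The stretch is shown because Psmb9 was the called member that held such a match. It lies at chr17:34187372-34187400 (RefSeq, GRCm38.p6, minus strand), begins its match 60 bases upstream of the start, and falls inside a longer first exon of the GENCODE model. The match is in capitals.
Psmb9: ccttgcgcgaTGATGGGGCggggcctcag
On either strand, TGANNNNGC was found in 41.3% of all 32851 windows of the RefSeq table, which run from 250 bases before to 50 bases after each start, and in 57.8% of 45 windows of 42 members. The core of the interferon response element, AAANNGAAA, was found in 10.6% of all windows and 13.3% of the members' windows, and the pair of STAT half-sites, TTCNNNGAA, in 8.3% and 6.67%. CCAAT was found in 37.4% and 33.3%. Windows of 1 gene can overlap, and so can matches of different motifs.

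Psmb10 (ENSMUSG00000031897; chr8:105935735-105938444, minus strand), known as MECL-1 or beta2i, had 63.1, 47.6, 71.9, 81.8 and 81.8 CPM in FSH-treated mice 1, 2, 3, 4 and 6. The saline group ranged from 37.4 to 56.8 CPM with a median of 49.4 CPM. FSH 2, the lowest of its group, lay within the saline range, and the other 4 FSH-treated livers lay above it. The log2 fold change was 0.53 (SE 0.15, limma adjusted p = 0.0363, exact permutation p = 0.0195). The call was lost in 12 of the 21 alternative settings, where the log2 fold change was 0.46 to 0.56 and the adjusted p by limma or edgeR reached 0.0954, and it was kept without FSH 2, saline 2 and saline 6 (adjusted p = 0.0174). The single livers whose omission ended the call were FSH 1 (adjusted p = 0.0657 by limma), FSH 3 (0.0827), FSH 4 (0.0954), FSH 6 (0.0725), saline 2 (0.07), saline 5 (0.0592) and saline 6 (0.0695).

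The third inducible subunit did not pass the test. Psmb8, known as LMP7 or beta5i, had 47.7, 35.5, 41.8, 56.9 and 58.9 CPM in FSH-treated mice 1, 2, 3, 4 and 6. The saline group ranged from 34.7 to 55.3 CPM with a median of 40.6 CPM, so that the groups overlapped over most of their range. Its log2 fold change was 0.19 (SE 0.15, 95% interval -0.13 to 0.50, limma adjusted p = 0.481). Leaving out single livers moved it from 0.11 without FSH 6 to 0.29 without FSH 2. The interval contains 0, and the difference between the 3 inducible subunits was not tested.

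The constitutive counterparts did not pass the test either. Psmb6, which Psmb9 replaces, had 143, 127, 159, 163 and 169 CPM in FSH-treated mice 1, 2, 3, 4 and 6 and 127 to 169 CPM in the saline group (median 160 CPM). Its log2 fold change was 0.01 (SE 0.11, 95% interval -0.22 to 0.23, limma adjusted p = 0.981), with a sign that turned under other scalings and without FSH 2, saline 2 and saline 6. Psmb7, which Psmb10 replaces, had 148, 140, 162, 142 and 151 CPM after FSH and 126 to 148 CPM after saline (median 135 CPM). The Psmb7 ranges shared the stretch between the lowest FSH-treated and the highest saline-treated liver, and its log2 fold change was 0.13 (SE 0.07, limma adjusted p = 0.271). Psmb5, which Psmb8 replaces, had 104, 101, 127, 118 and 120 CPM after FSH and 90.2 to 115 CPM after saline with a median of 107 CPM (log2 fold change 0.13, SE 0.09, limma adjusted p = 0.407).

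Setting each inducible subunit against its counterpart per base of mRNA gives the balance within each liver. The ratio of Psmb9 to Psmb6 was 0.127, 0.113, 0.0870, 0.116 and 0.0808 in FSH-treated mice 1, 2, 3, 4 and 6 and 0.0455 to 0.0775 in the saline group. The groups did not overlap, with means of 0.105 ± 0.0198 (SD, n = 5) and 0.0599 ± 0.0126 (SD, n = 6), the former 1.75 times the latter. Psmb9 mRNA was thus far below Psmb6 mRNA per length in every liver. For Psmb10 to Psmb7 the means were 0.412 ± 0.0840 (SD, n = 5) and 0.310 ± 0.0449 (SD, n = 6), and for Psmb8 to Psmb5 they were 0.233 ± 0.0421 and 0.222 ± 0.0295. Both of these pairs overlapped between groups. These ratios rest on the values tested above and are given with no test.

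**Figure D2:**
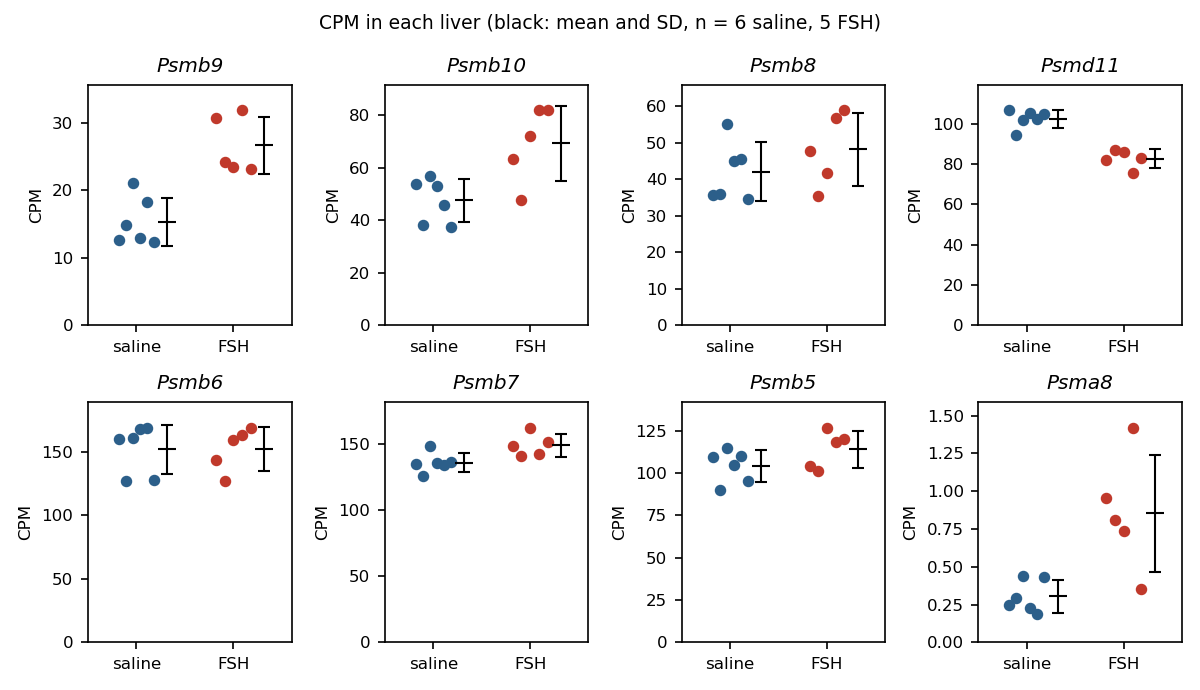
CPM in each liver (points; saline n = 6, FSH n = 5) with the mean and SD of each group, for called members and the inducible and constitutive catalytic subunits, with each axis starting at 0. The groups are separate for Psmb9 and Psmd11 and overlap for the other genes shown.

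Genes that interferon and leukocytes bring with them were looked at beside these subunits. Of 12 interferon-induced genes, 8 had higher and 4 lower values after FSH and 0 were called by limma in either direction, with a median log2 difference of 0.27 and a summed level of 2248 to 2625 CPM after FSH and 2349 to 2538 CPM after saline. Most of this sum was H2-K1, a heavy chain of MHC class I, at 2009 to 2409 CPM after FSH and 2163 to 2342 CPM after saline. The other 11 genes summed to 202 to 240 CPM after FSH and 167 to 234 CPM after saline. The smallest adjusted p by limma among them were those of Gbp2 (log2 fold change 0.57, adjusted p = 0.0542), whose groups did not overlap, Gbp3 (0.47, 0.0699), Ifit3 (0.48, 0.0716) and Ifit1 (0.36, 0.0772). Each of these was called when certain single livers were left out, Gbp2 without FSH 6 (adjusted p = 0.0441 by limma), saline 5 (0.0447) or saline 6 (0.0494), Gbp3 without saline 3 (0.0304) or saline 5 (0.036), Ifit3 without FSH 3 (0.0483) or saline 6 (0.0268), and Ifit1 without FSH 6 (0.036). Of 9 leukocyte and Kupffer cell genes tested, 1 had a higher and 8 had lower values after FSH, and Cd68, a macrophage marker, was called lower (4.62 ± 1.10 CPM after FSH and 8.26 ± 1.83 CPM after saline, limma adjusted p = 0.0118). The summed level of the list was 177 to 406 CPM after FSH and 276 to 466 CPM after saline. The part of either list in the values of Psmb9 and Psmb10 was not tested.

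Among the other beta subunits and the alpha subunits, the values after FSH were slightly higher for most genes and, apart from Psma8, passed no test. Of the 18 core genes tested, 17 had a higher mean log2 value after FSH and 1, Psma6, a lower one, with a median log2 difference of 0.13 against 0.02 for all genes, 54.0% of which were higher. The 17 include Psma8, which passed the filter only through the FSH group. With the filter at 2 CPM, which left Psma8 out, the split was 16 to 1 with a median of 0.13. Counting Psma8, the split was 15 to 3 under TMM and median-of-ratios scaling, 14 to 4 with edgeR, and 14 to 4 without FSH 2, saline 2 and saline 6. The structural subunit with the smallest p was Psmb1, with 172 ± 21.3 CPM (SD, n = 5) after FSH and 149 ± 12.8 CPM (SD, n = 6) after saline (log2 fold change 0.20, limma adjusted p = 0.202). Psma6 had 113 ± 8.65 and 114 ± 7.13 CPM.

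Psma8 (ENSMUSG00000036743) is the alpha subunit of the testis proteasome and was near the limit of detection. It had 19, 11, 13, 22 and 4 reads in FSH-treated mice 1, 2, 3, 4 and 6, and 2 to 7 reads in each saline-treated liver, 69 reads against 24 in all. On the CPM scale this was 0.954, 0.811, 0.736, 1.42 and 0.351 after FSH and 0.185 to 0.437 (median 0.270) after saline, so that FSH 6 lay within the saline range. The log2 fold change was 0.71 (SE 0.21, limma adjusted p = 0.0391, exact permutation p = 0.00866). This size depends on the pseudocount, with 1.18 at 0.1 CPM and 0.49 at 1 CPM (adjusted p = 0.0414 by limma in both) and 1.44 by edgeR (adjusted p = 0.0169). It passed the filter through the FSH group, since the saline mean was 0.304 CPM, and it is a paralog of Psma7, which was 106 ± 3.35 CPM after FSH, so that a few shared reads could matter. The call was lost without FSH 1 (adjusted p = 0.105 by limma), FSH 2 (0.074), FSH 3 (0.0698), saline 1 (0.0655), saline 2 (0.062), saline 4 (0.0692) or saline 5 (0.0687), and without FSH 2, saline 2 and saline 6 together (0.113). Without FSH 4 its mean fell under the filter and it was not tested.

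In the 19S cap the clearest difference was in Psmd11. Psmd11 (ENSMUSG00000017428), the lid subunit Rpn6, which bridges the cap and the core, had 81.9, 87.2, 86.3, 75.8 and 83.1 CPM in FSH-treated mice 1, 2, 3, 4 and 6. The saline group ranged from 94.3 to 107 CPM with a median of 104 CPM. Every FSH-treated liver was below every saline-treated liver. The means were 82.8 ± 4.52 CPM (SD, n = 5) and 103 ± 4.48 CPM (SD, n = 6) in that order (log2 fold change -0.31, SE 0.07, 95% interval -0.46 to -0.16, limma adjusted p = 0.0121). The exact permutation test gave p = 0.00216, the smallest that these group sizes allow. It stayed called in all 21 alternative settings, with adjusted p from 0.00985 to 0.0474 by limma or edgeR, and without FSH 2, saline 2 and saline 6 it was 0.0224.

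Psmd11 lies at chr11:80428615-80473248 on the plus strand. The 250 bases before its start are shown to set the 1 called cap gene among the Psm genes beside Psmb9, a choice made after its values were seen. They lie at chr11:80428365-80428614 (RefSeq, GRCm38.p6), outside any GENCODE exon, and hold 0 matches to TGANNNNGC, which says only that these letters are not in this window. They hold 1 match to AAANNGAAA, on the other strand and reaching 170 bases upstream of the start, which is in capitals.
Psmd11: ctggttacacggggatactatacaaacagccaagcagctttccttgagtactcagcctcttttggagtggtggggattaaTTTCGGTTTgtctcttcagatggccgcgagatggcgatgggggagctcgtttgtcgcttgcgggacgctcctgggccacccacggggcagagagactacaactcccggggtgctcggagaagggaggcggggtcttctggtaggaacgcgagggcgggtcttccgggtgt

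The other Psm genes of the cap did not pass the test. Of the 17 tested, 14 had lower and 3 higher values after FSH, the latter being Psmc3, Psmd12 and Psmd13, with a median log2 difference of -0.11. The split was 15 to 2 under TMM and median-of-ratios scaling and with edgeR, where Psmd12 was also lower, and 16 to 1 without FSH 2, saline 2 and saline 6. Among the ATPases, Psmc5 was at 79.1 ± 12.7 CPM (SD, n = 5) after FSH and 97.0 ± 13.2 CPM (SD, n = 6) after saline (log2 fold change -0.30, limma adjusted p = 0.135), and Psmc4 was at 69.7 ± 5.55 and 82.5 ± 8.71 CPM (log2 fold change -0.24, limma adjusted p = 0.11). Psmd4, the ubiquitin receptor Rpn10, was at 87.5 ± 7.65 and 106 ± 15.9 CPM (log2 fold change -0.27, limma adjusted p = 0.134). It was called without saline 2 (adjusted p = 0.043 by limma) and without FSH 2, saline 2 and saline 6 (0.0258). The 3 genes with the opposite sign had log2 fold changes of 0.01 for Psmd12 (limma adjusted p = 0.981), 0.06 for Psmc3 (0.665) and 0.09 for Psmd13 (0.555). Leaving out single livers gave 0.03 without saline 6 to 0.08 without saline 3 for Psmc3 and 0.05 without saline 5 to 0.12 without FSH 6 for Psmd13.

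The core and the cap were then compared within each liver. For each gene the log2 value was taken relative to its mean over the 11 livers, and the median over the 18 core genes was set against that over the 17 cap genes. The difference was 0.147, -0.0316, 0.223, 0.142 and 0.0754 in FSH-treated mice 1, 2, 3, 4 and 6 and -0.198 to -0.0477 in the saline group, so that the groups did not overlap. Leaving out the inducible subunits and Psma8 gave -0.0316 to 0.193 after FSH and -0.187 to -0.0366 after saline, which kept the groups apart by a narrow margin. The livers FSH 2, saline 2 and saline 6 had the lowest core medians, at -0.0736, -0.261 and -0.166. Without them, with each gene taken relative to its mean over the other 8 livers, the difference was 0.0478 to 0.168 after FSH (n = 4) and -0.203 to -0.0654 after saline (n = 4).

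The summed levels restate this contrast for the same genes and livers, so they are not separate support. Core mRNA summed to 1657 to 1980 CPM after FSH and 1440 to 1782 CPM after saline, and cap mRNA to 1383 to 1448 CPM after FSH and 1374 to 1627 CPM after saline. Both sums overlapped between the groups, while their ratio did not, at 1.28 ± 0.0647 (SD, n = 5) after FSH and 1.08 ± 0.0549 (SD, n = 6) after saline. Without FSH 2, saline 2 and saline 6 the ratio was 1.305 ± 0.0503 (SD, n = 4) and 1.11 ± 0.0534 (SD, n = 4), again with no overlap. All tested members together took 0.355 to 0.397% of the reads after FSH and 0.328 to 0.390% after saline.

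**Figure D3:**
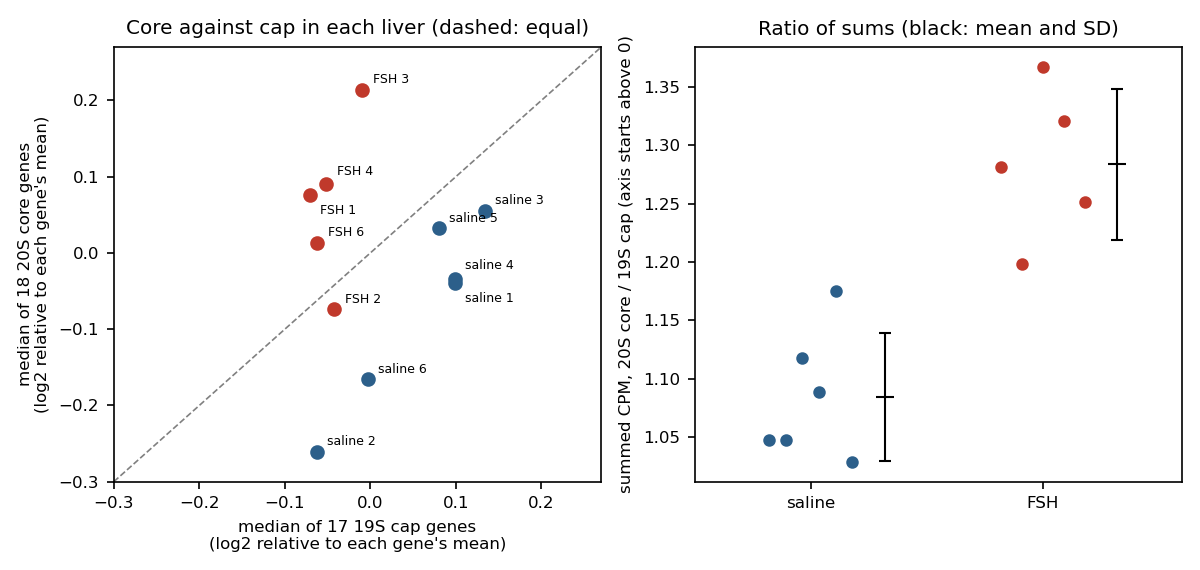
Left, the median over 18 core genes against the median over 17 cap genes in each liver, in log2 units relative to each gene's mean, with a dashed line where both are equal. Right, the ratio of summed core CPM to summed cap CPM in each liver with the mean and SD of each group, on an axis that starts above 0. FSH-treated livers lie at 1.198 to 1.367 and saline-treated livers at 1.029 to 1.175.

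The length of the mRNAs moved with this contrast. The median mRNA length was 1192 bases for the core genes and 1636 bases for the cap genes, and over all genes the median log2 difference fell from 0.0977 for mRNAs of at most 999 bases (772 genes) to -0.00317 for those of 3000 bases or more (5691 genes). Up to 999 bases, 5 core genes had a median log2 difference of 0.04, below the 0.10 of all genes of that length, and no cap gene was that short. Within 1000 to 1499 bases, 8 core genes had a median log2 difference of 0.13 and 4 cap genes one of -0.25, against 0.08 for all 1205 genes of that length. Within 1500 to 1999 bases, 3 core genes had 0.20 and 8 cap genes -0.05, against 0.04 for all 1507 genes. Within 2000 to 2999 bases, 2 core genes had 0.14 and 4 cap genes -0.11, against 0.01 for all 2836 genes, and the 1 cap gene of 3000 bases or more had -0.12. Without FSH 2, saline 2 and saline 6, the medians of the core genes in the 4 classes up to 2999 bases were -0.05, 0.10, 0.18 and 0.11, against 0.05, 0.05, 0.03 and 0.02 for all genes. All genes of 3000 bases or more were then at 0.0165, with the sign turned, and those of the cap genes from 1000 bases on were -0.32, -0.06, -0.12 and -0.24. These are descriptions of few genes, and the part of mRNA length in the contrast was not tested further.

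Activators and assembly chaperones were not called by limma in either direction (0 of 6 and 0 of 7, where 10.6% of all genes were called). An unadjusted p under 0.05 was found for 1 gene of each class, Psme3 and Psmg4 (16.7% and 14.3%), against 25.1% of all genes. With edgeR, 0 genes of either class were called, where 11.3% of all genes were. Psme1 and Psme2, which form the interferon-induced PA28 activator, were at 140 ± 12.0 and 101 ± 11.3 CPM (SD, n = 5) after FSH and at 126 ± 18.2 and 85.9 ± 12.8 CPM (SD, n = 6) after saline, with limma adjusted p = 0.4 for Psme1 and 0.216 for Psme2. The log2 fold change of Psme1 was 0.16, and 0.07 without FSH 2, saline 2 and saline 6. Psme2b is a near-identical copy of Psme2, and reads may have been split between them. Psme3, which forms the nuclear PA28 gamma activator, was at 36.3 ± 2.72 and 42.5 ± 4.95 CPM (log2 fold change -0.22, limma adjusted p = 0.165), and was the 1 of the 6 genes of this class with a lower value. The 6 genes counted as activators include the inhibitor Psmf1 (log2 fold change 0.13, limma adjusted p = 0.385). Of the chaperones, 6 had higher and 1 lower values. Psmg4, a chaperone of the core, was at 11.4 ± 0.789 and 9.33 ± 1.59 CPM (log2 fold change 0.29, limma adjusted p = 0.135), and it was called without saline 5 (adjusted p = 0.0461 by limma), while without FSH 2, saline 2 and saline 6 its log2 fold change was 0.18 (adjusted p = 0.445 by limma). Psmg2, which pairs with Psmg1, was at 13.0 ± 1.54 and 10.8 ± 1.85 CPM (log2 fold change 0.26, limma adjusted p = 0.216), and its log2 fold change without the same 3 livers was 0.15.

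For the 44 tested members that were not called, the data limit how large a change could be. Their log2 fold changes lay between -0.30 and 0.29, and for 39 of them the whole 95% interval lay within 0.5 of 0. The interval bounds of the 44 genes ran from -0.56 to 0.54.

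The members differed far more from each other than between the groups. Per kilobase of mRNA, the saline means of the catalytic subunits were 116 (Psmb5), 117 (Psmb7) and 190 (Psmb6) CPM. The other beta subunits lay between 73.9 and 142 CPM per kilobase, the alpha subunits between 0.180 (Psma8) and 113 (Psma7), and the inducible subunits between 11.3 (Psmb9) and 36.3 (Psmb10). Cap subunits were lower, with a median of 47.98 CPM per kilobase against 79.3 for the core. Assembly chaperones were at 6.71 to 21.3 CPM per kilobase. The highest of them, Psmg3, was close to the lowest alpha subunit other than Psma8, Psma2 at 26.0, and Psmd9 at 18.8 was close to the lowest ATPase, Psmc6 at 24.9. Among activators, Psme1 reached 113 CPM per kilobase, while Psme2b was lowest at 8.26.

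**Figure D4:**
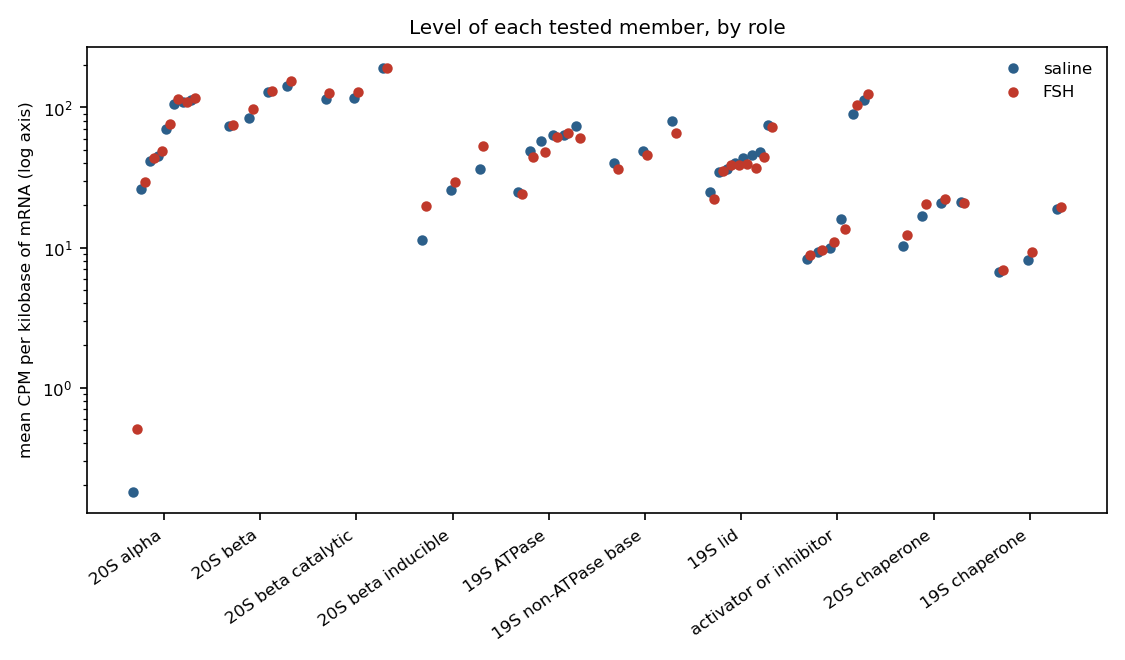
Mean level of each tested member in CPM per kilobase of mRNA on a log axis, by role, for saline and FSH. By their role's median, catalytic and structural beta subunits are the highest, single genes of different roles overlap, and the testis subunit Psma8 stands far below the rest.

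Genes of the wider pathway that carry other names were examined as well. Of 34 genes listed, 33 were tested, and 12 had higher and 21 lower values after FSH. None of the 33 was called higher and 2 were called lower, Ubqln1 and Adrm1, where 6.19% of all genes were called higher and 4.41% lower. Ubqln1, a shuttle that carries ubiquitinated proteins to the proteasome, had 91.0, 105, 97.3, 88.7 and 90.0 CPM in FSH-treated mice 1, 2, 3, 4 and 6 and 106 to 129 CPM in the saline group (median 127 CPM). Every FSH-treated liver was below every saline-treated liver, with a log2 fold change of -0.36 (SE 0.08, limma adjusted p = 0.0118), and the gene was called in all 21 alternative settings. Adrm1, the ubiquitin receptor Rpn13 of the cap, had 72.0, 81.1, 87.2, 91.2 and 107 CPM after FSH and 97.0 to 119 CPM after saline (median 111 CPM). FSH 6 lay within the saline range. The log2 fold change of Adrm1 was -0.33 (SE 0.10, limma adjusted p = 0.0485), and its call was lost in 16 of the 21 alternatives, among them the omission of any single liver other than FSH 6 or saline 6, with an adjusted p of up to 0.146, reached without FSH 1.

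The assembly factor and the regulator of the pathway did not pass the test. Pomp, a maturation factor of the core, had 137, 131, 158, 140 and 138 CPM in FSH-treated mice 1, 2, 3, 4 and 6 and 106 to 145 CPM after saline with a median of 134 CPM (log2 fold change 0.15, SE 0.10, limma adjusted p = 0.373). Its lowest saline values were those of saline 2 and saline 6, and without these livers and FSH 2 its log2 fold change was 0.05 (adjusted p = 0.773 by limma). Nfe2l1, which encodes the factor NRF1 that raises proteasome genes when the protease is inhibited, had 110, 140, 102, 116 and 127 CPM after FSH and 99.1 to 141 CPM after saline (median 125 CPM). Both genes overlapped between groups, and the log2 fold change of Nfe2l1 was -0.06 (SE 0.10, limma adjusted p = 0.782), running from -0.12 without saline 5 to -0.0041 without FSH 3.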

How the data were processed

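Whole liver of 11 mice (5 FSH, 6 saline) was read by paired-end mRNA sequencing of NEBNext Ultra libraries. The authors deposited CPM values, in which the reads on a gene are divided by the library's total, without any further scaling between libraries. The submitters' processing notes name FastQC 0.11.2, Trim Galore 0.3.3, cutadapt, STAR, RSEM and mm10. RSEM gives estimated counts, yet 100% of the values came back as whole reads (tolerance 0.1 read), and how they became whole, the annotation and the strand setting are not given in the sources used here. Antisense and overlapping genes and paralogs may therefore share reads.

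Groups follow the labels, which number mice within each group but state no further origin, so p-values measure the spread between these libraries. No pair of libraries within a group agreed within sampling noise (lowest mean chi-square 11.4 per gene). Identifiers were matched to GENCODE M21 symbols (35555 of 36788). Genes averaging 0.5 CPM or more were fitted on log2(CPM + 0.5) in limma 3.58.1 (R 4.3.3) with an intensity trend, and single genes were also tested by exact permutation. Alternatives were pseudocounts of 0.1 and 1 CPM, no filter or a filter at 2 CPM, TMM and median-of-ratios scaling, no trend, a replicate block, edgeR 4.0.16 on recovered reads, and leaving out each library. Leaving out FSH 2, saline 2 and saline 6 together, and H2-K1 from the interferon-induced sum, was chosen after seeing the data. Lengths are those of the APPRIS principal mRNA.

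Members and gene lists were chosen with earlier results of these data known. Every library's value, or the range for saline, is given for members at an adjusted p under 0.05, for Psmb5 to Psmb10, for pathway genes at that threshold and for Pomp, Adrm1 and Nfe2l1. Other genes are examples chosen after their values were seen. Pancreatic acinar genes (10.5 to 15.2 CPM with FSH, 7.86 to 13.7 CPM with saline in sum, Prss2 and Pnlip at 0 reads) and erythroid genes (434 to 743 and 395 to 946 CPM) had 0 calls by limma. Of the hepatocyte genes, 1 of 8, Fgb, was called lower. Paaf1 was not analysed here.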

Additional observations from a re-analysis of the deposited data

Results flagged for a closer look

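Among 96 groups of values (48 members in each treatment), 4 held a liver that stood apart from its group by Dixon's criterion, which chance alone gives in about 1 of 20 groups. Psmd11 was 94.34 CPM in saline 2, with the other saline-treated livers at 102.2 to 106.8 CPM, so the liver that stood apart was the one nearest to the FSH group. Psmg2 was 10.25 CPM in FSH 6, with the others at 13.25 to 13.96 CPM. Psmd13 was 69.41 CPM in FSH 6, with the others at 78.0 to 79.52 CPM. Psme2b was 5.458 CPM in FSH 2, with the others at 7.712 to 8.156 CPM.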

How the results depend on the processing

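Psmb9, Psmd11 and Ubqln1 kept their direction and their call in all 21 alternatives. The number of members called ranged from 2 to 4 when single livers were left out, with 2 without FSH 1, FSH 3 or FSH 4. In that order, these were 4.17%, 4.17% and 4.26% of the members, against 6.31%, 7.15% and 7.58% of all genes. Psma8 was the 1 member past both thresholds with a pseudocount of 0.1 CPM and with edgeR, and leaving out single livers gave 0 in each case. The pathway genes called numbered 1 with no filter, TMM, median-of-ratios scaling, no trend, edgeR, and without FSH 2, saline 2 and saline 6, and 1 to 4 without single livers. All genes called numbered 849 without those 3 livers and 803 to 1659 without single livers. The log2 fold change of Psmb6 was -0.0217 under TMM, -0.01997 under median-of-ratios scaling, -0.0248 with edgeR and -0.0516 without the 3 livers, and -0.0432 to 0.0704 without single livers. For Psmd12 the values were -0.0231, -0.0214, -0.0183 and -0.0307 in that order, and -0.0487 to 0.0461 without single livers. Psmc3 was at -0.00626 without the 3 livers, and Psma6 at -0.0599 to 0.0137 without single livers. The causes were not tested. Median log2 fold changes ranged over all alternatives from 0.09 to 0.16 for the core and from -0.14 to -0.09 for the cap. Replicate numbers did not pair the libraries in general (same-number correlations -0.0662 to 0.356). The exception was FSH 2, whose best match was saline 2 (0.356), while the best match of every other FSH-treated liver bore another number. With the replicate block, 3 members (Psmb9, Psmb10 and Psmd11), 4 pathway genes and 1210 genes in all were called, and Psma8 was not (adjusted p = 0.12 by limma). Depth limits Psma8 and Psmc3ip, which had few reads per library.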
